A study of Mus musculus with 16 samples.

Results

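Gastrocnemius muscle of N17182Q transgenic mice given vehicle was compared with that of wild-type mice given vehicle, 4 animals of each genotype, 1 array per animal. These are the samples titled Veh Tg/+ and Veh wt, and they make up 8 of the 16 arrays in the series. The other 8 arrays, 3 of transgenic and 5 of wild-type mice that received 4b, an inhibitor of histone deacetylases, shared the estimate of the spread and are used for their own genotype difference at the end. All animals are of the strain B6C3F1/J, so the groups compared differ in the labels only by the transgene. The transgene encodes an N-terminal fragment of human huntingtin with an expanded polyglutamine tract under a prion protein promoter, so it is not restricted to muscle, and the mice keep their own huntingtin genes. The labels do not give the animals' sex, age, dose or time of sampling.

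The gastrocnemius is a mixed limb muscle built mainly of fast, glycolytic fibres. Such fibres use fast isoforms of myosin, troponin and calsequestrin and burn glycogen, while slow fibres use their own isoforms and burn fatty acids in mitochondria. The motor nerve keeps the genes of the acetylcholine receptor switched on under the endplate and off elsewhere, and muscle that loses its nerve or regenerates turns embryonic receptor and myosin genes back on. Wasting muscle also changes its ubiquitin ligases, its autophagy genes, its growth factor signalling and the collagen made by its fibroblasts.

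Values are normalized log2 probe intensities from Illumina bead arrays. A gene was tested if its probe had a detection p under 0.05 on at least 3 of the 16 arrays, and was called if its adjusted p in limma was under 0.05 (two-sided, Benjamini-Hochberg over all rows). Of 10295 rows, 546 were called (5.30%), with transgenic mice higher in 246 (2.39%) and lower in 300 (2.91%), and the median difference of all rows was 0.01 on the log2 scale (0.12 when arrays were scaled to a common median in place of quantiles). Called members of each gene list below are to be read against the 5.30% called of all rows. The arrays of the groups did not overlap for 1332 rows (12.9%). Between 44.1% and 50.3% of probes were detected on transgenic arrays and between 42.7% and 48.6% on wild-type arrays. Arrays correlated at 0.929 to 0.978 among transgenic mice, at 0.941 to 0.977 among wild-type mice and at 0.917 to 0.973 between genotypes, and single arrays weighed heavily. The number called was 175 without transgenic replicate 1, 311 without transgenic replicate 3, and 254, 243 and 183 without wild-type replicates 1, 2 and 3. It was 575 and 579 without transgenic replicates 2 and 4 and 665 without wild-type replicate 4. Transgenic replicate 4 and wild-type replicate 4 stood apart in lymphocyte markers, with scores of 3.16 and 2.08 against -0.90 to -0.01 on the other 6 arrays, and 582 genes were called without both. A fit on the 8 vehicle arrays alone, with fewer arrays to estimate the spread, called 124 rows (47 higher, 77 lower). Scaling arrays to a common median called 727, of which 72.6% were higher in transgenic mice, against 45.1% of the 546. The size of differences of dim genes depended on the background correction. Of 118 called genes picked for naming, not all of which are named below, 30 had a fold over 1.5 times smaller in the authors' log2 values. Their median level was 6.89 against 10.17 for the others. Of the 38 with other probes, 10 had one that differed by under 0.5 of the printed difference or the opposite way, and each of these values is given below with its gene. Muscle fibre markers were high on every array: the creatine kinase gene Ckm lay between 14.93 and 15.13 on transgenic and between 15.13 and 15.21 on wild-type arrays. These values lie near the top of the scale, where differences can be hidden. Of 11 fibre markers 10 lay below 0, with a median of -0.14, and 1 was called lower. The prion protein gene Prnp, which gives the transgene its promoter, was at 14.55, 15.09, 14.69 and 14.27 on the transgenic arrays and at 13.49, 13.35, 13.34 and 13.77 on the wild-type arrays (log2 1.16 ± 0.17 SE, adjusted p = 0.00215). Whether its probe also reads the transgene's message was not tested.

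**Figure D1:**
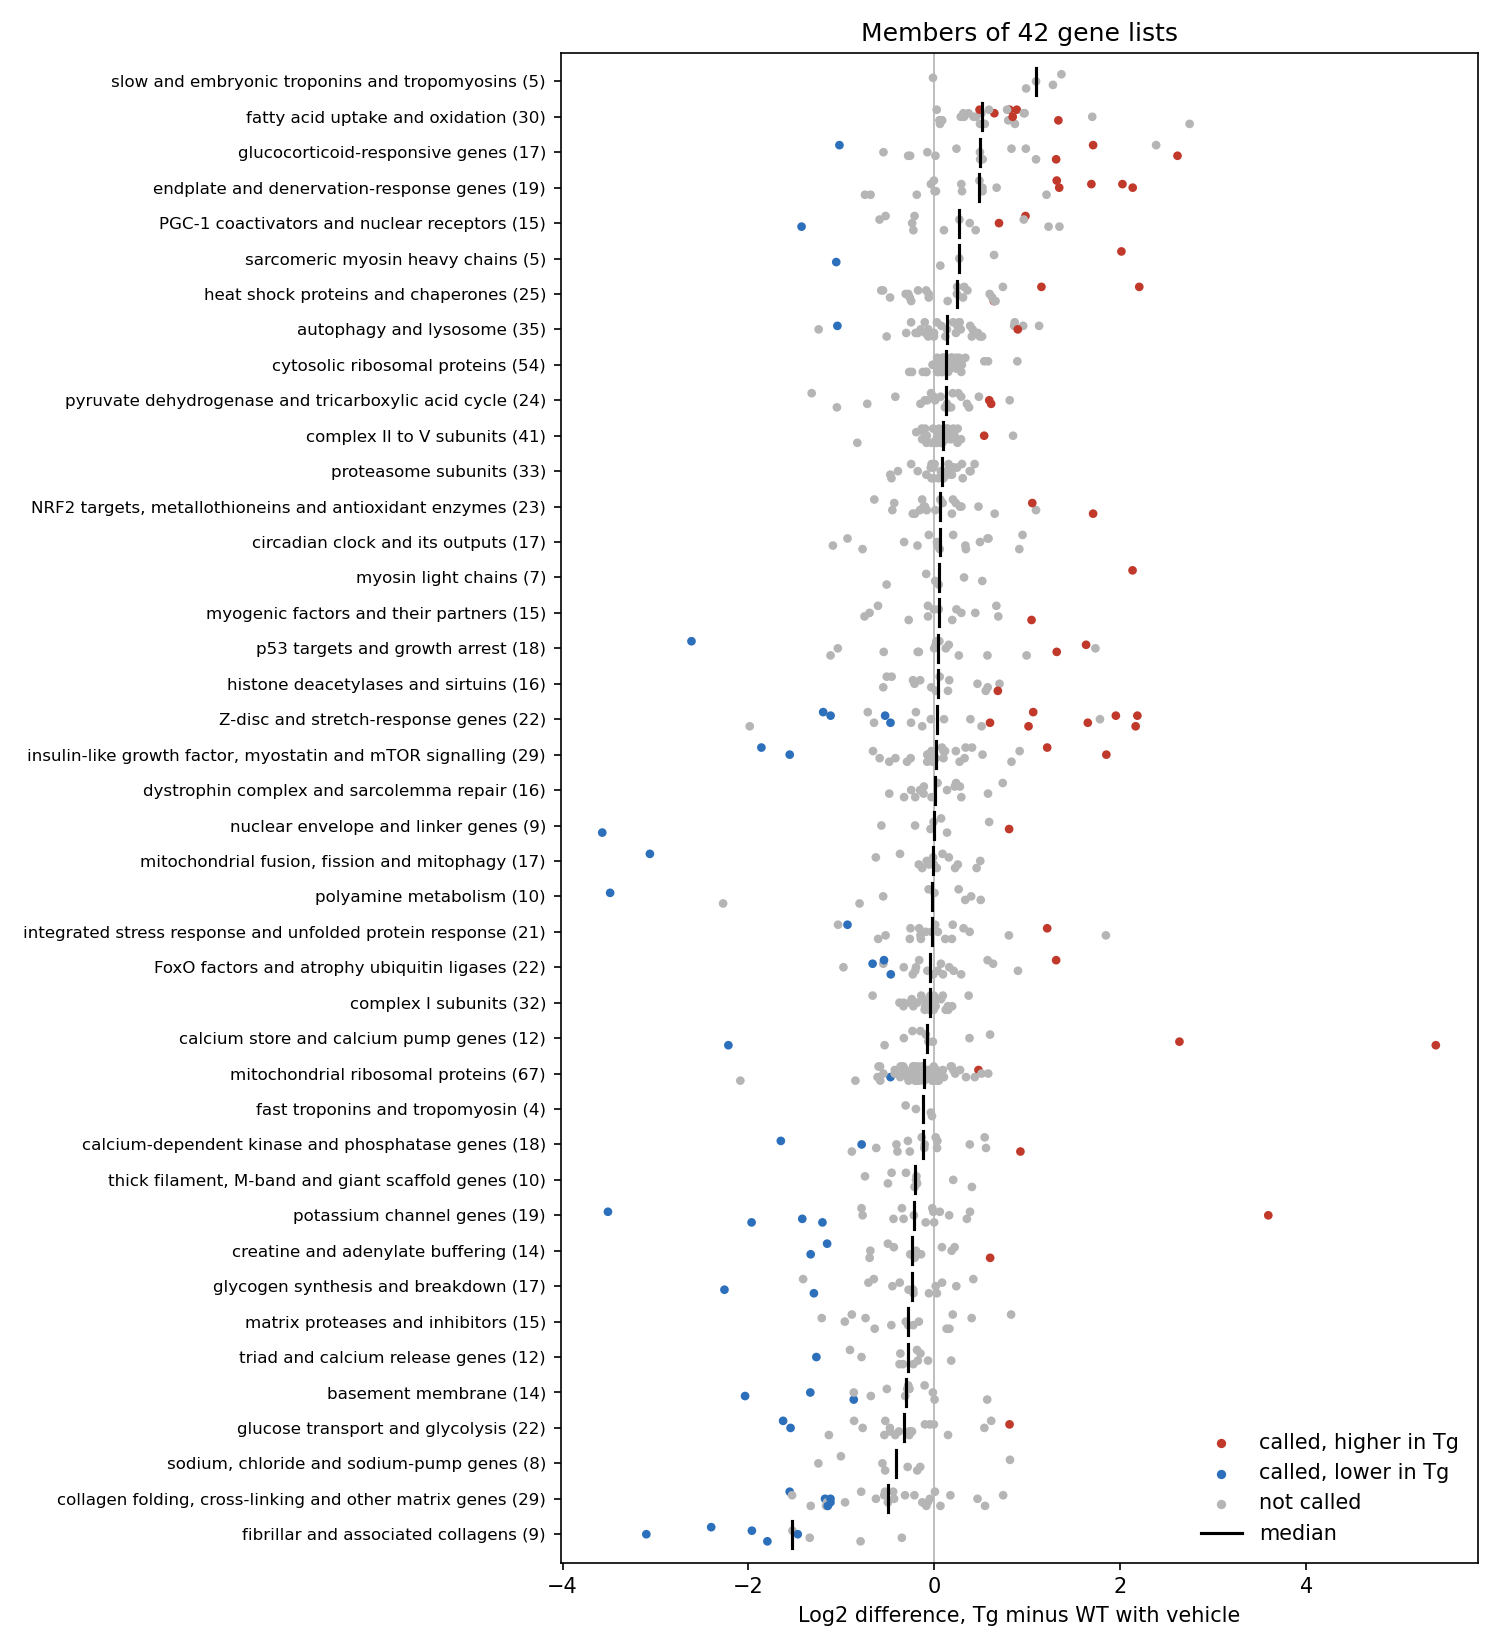
Log2 difference (transgenic minus wild type, both with vehicle) of every tested member of 42 gene lists, 1 row per list ordered by its median, with the number of tested members in brackets. Red and blue points are called members, higher or lower with the transgene, grey points are not called and black ticks are medians. Fatty acid oxidation members lie at or right of 0, and the collagen list lies left of 0.

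Among contractile genes, single isoforms were called. Of 5 tested myosin heavy chains, the perinatal Myh8 rose and Myh4, the chain of the fastest fibres, fell. Myh4 was at 12.50, 13.44, 13.37 and 13.51 on the transgenic arrays, against 14.44, 14.24, 14.20 and 14.16 on the wild-type arrays (log2 -1.06 ± 0.21 SE, adjusted p = 0.0128). Every transgenic array lay below every wild-type array, and transgenic replicate 1 was the lowest. Myh8 was at 10.17, 9.40, 8.52 and 9.40 in transgenic and at 7.76, 7.35, 7.10 and 7.23 in wild-type muscle (log2 2.01 ± 0.41 SE, adjusted p = 0.0146). This call was lost without transgenic replicate 1 (adjusted p = 0.0522). The fast chain Myh1 and the slow chain Myh7 were not called (adjusted p = 0.92 and 0.707). Myh7 was at 9.11, 7.21, 6.79 and 9.98 on the transgenic arrays and at 8.50, 8.57, 7.30 and 6.15 on the wild-type arrays, so the groups overlapped and both spanned over 2 log2 units.

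Of 7 light chain genes, 1 rose: Myl6b, a light chain of slow and embryonic muscle, was at 7.60, 7.36, 5.96 and 7.62 on the transgenic arrays and at background level on each wild-type array (at least 3.05-fold higher after background correction, but 1.95-fold by the authors' values, adjusted p = 0.00252). Limma called 0 of the 4 fast troponin and tropomyosin genes (0 at an unadjusted p under 0.05), with Tnnt3 at -0.20 ± 0.11 (SE). Tnnc2, Tnni2 and Tnnt3 lay near the top of the scale, where differences can be hidden, and Tnnc2 read 15.39 on every wild-type array. Limma also called 0 of the 5 slow and embryonic troponin and tropomyosin genes (4 at an unadjusted p under 0.05), with a median difference of 1.09. The slow troponin gene Tnni1 was at 9.61, 8.51, 7.46 and 10.43 on the transgenic arrays and at 7.91, 8.31, 7.44 and 7.24 on the wild-type arrays (adjusted p = 0.174). Its partners Tnnt1 and Tnnc1 and the tropomyosin gene Tpm3 differed by 1.09 ± 0.46, 0.99 ± 0.44 and 1.37 ± 0.60 (SE). The scores of this list, the mean difference of its genes from the wild-type vehicle mean, were 1.41, 0.58, -0.16 and 1.93 on the transgenic arrays and 0.13, 0.57, -0.12 and -0.59 on the wild-type arrays. Transgenic replicates 1 and 4 were high and replicate 3 was within the wild-type range. Without both arrays of high lymphocyte score the list's median was 0.50, against 1.09 with them. Of 10 thick filament and scaffold genes limma called 0 (3 at an unadjusted p under 0.05), with the actin-capping gene Tmod4 nearest at -0.50 ± 0.15 (SE, adjusted p = 0.073).

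The Z-disc, which anchors the thin filaments and carries proteins that respond to stretch, held 11 called genes among 22 tested, 7 higher and 4 lower in transgenic mice. Those that rose were the LIM-domain gene Fhl2, the alpha-actinin gene Actn2, Xirp1, the stretch-responsive Ankrd2, the calcineurin-binding Myoz2 of slow fibres, the muscle LIM protein gene Csrp3 and the desmin gene Des. Those that fell were Ankrd23, the PDZ and LIM gene Pdlim7, Myoz1 of fast fibres and the fast-fibre alpha-actinin gene Actn3. Csrp3, Des and Actn3 are named after their values were seen. Myoz2 was at 12.91, 12.56, 11.94 and 13.01 on the transgenic and at 11.36, 11.74, 11.33 and 11.73 on the wild-type arrays (log2 1.06 ± 0.26 SE, adjusted p = 0.027). Myoz1 moved the other way, at 13.42, 13.48, 13.67 and 13.50 in transgenic and 14.11, 14.30, 13.96 and 13.82 in wild-type muscle (log2 -0.53 ± 0.13 SE, adjusted p = 0.0284). The groups did not overlap for either gene. The actinin pair showed the same arrangement: Actn2 was at 14.89, 14.89, 14.60 and 14.54 in transgenic and 13.80, 14.08, 13.26 and 13.72 in wild-type muscle (log2 1.01 ± 0.20 SE), and Actn3 differed by -0.47 ± 0.13 (SE, adjusted p = 0.0484). The stretch-response pair diverged as well. Ankrd2 was at 13.71, 12.61, 11.26 and 12.52 in transgenic and 9.98, 11.20, 9.43 and 10.76 in wild-type muscle (log2 2.18 ± 0.48 SE). Ankrd23 was at 11.47, 13.11, 12.76 and 12.64 in transgenic and 13.71, 13.60, 13.86 and 13.59 in wild-type muscle (log2 -1.20 ± 0.28 SE). Ankrd1 of the same family was not called (1.78 ± 0.64 SE, adjusted p = 0.119). Single arrays decide many of these calls. With median scaling the called genes were 6 higher and 1 lower, and in the fit of the vehicle arrays alone 1 and 0. Without wild-type replicate 3 only 2 of the 22 were still called higher and 0 lower, and without transgenic replicate 1, 3 and 0. Fhl2 and Actn2 were called in all 8 omissions of 1 vehicle array, Xirp1 in all but that of wild-type replicate 3 (adjusted p = 0.05003). The calls of Ankrd2 and Ankrd23 were lost in 3 and 4 omissions (adjusted p up to 0.0657 and 0.0791, without wild-type replicate 3). Those of Myoz1, Myoz2, Pdlim7, Csrp3, Des and Actn3 were lost in 5 to 7 omissions, with adjusted p up to 0.156 without transgenic replicate 1. The kyphoscoliosis gene Ky, a cytoskeletal peptidase gene, was at 9.46, 12.39, 12.31 and 12.49 in transgenic and 14.20, 13.63, 13.99 and 12.77 in wild-type muscle, a separation that did not pass (adjusted p = 0.092).

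**Figure D2:**
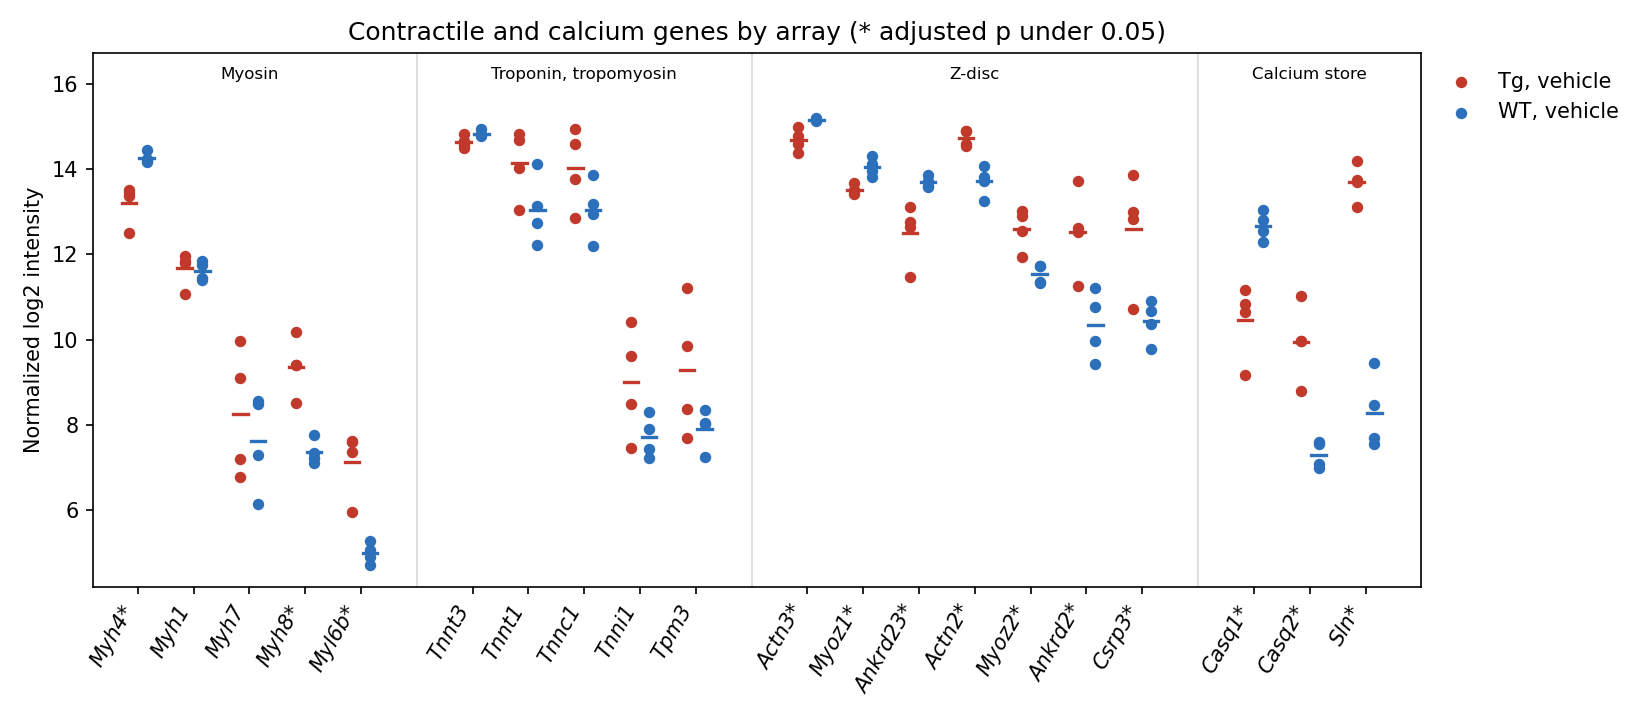
Normalized log2 intensity of contractile and calcium-store genes, 1 point per array, red for transgenic and blue for wild-type mice with vehicle, with bars at group means and an asterisk on genes called at an adjusted p under 0.05. Slow troponin and tropomyosin genes spread widely among transgenic arrays, while Myoz1 and Myoz2, Actn3 and Actn2, and Casq1 and Casq2 are called in opposite directions.

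Calcium store genes changed in both directions. Sarcolipin (Sln), an inhibitor of the calcium pump of the sarcoplasmic reticulum, was at 13.12, 14.20, 13.74 and 13.69 on the transgenic arrays, against 8.46, 9.46, 7.70 and 7.55 on the wild-type arrays (log2 5.39 ± 0.44 SE, adjusted p = 2.74e-05). The pump it acts on in fast fibres, Atp2a1, was not called (-0.06 ± 0.11 SE, adjusted p = 0.795). The means of Atp2a1, 14.94 in transgenic and 15.01 in wild-type muscle, also lay near the top of the scale. The 2 calsequestrins, which bind calcium in the store, moved in opposite directions. Casq2, of slow and cardiac muscle, was at 9.98, 11.02, 8.80 and 9.98 in transgenic and 7.59, 7.08, 7.55 and 7.00 in wild-type muscle (log2 2.64 ± 0.46 SE, adjusted p = 0.00696). Casq1, of fast fibres, was at 9.17, 11.17, 10.65 and 10.83 in transgenic and 13.03, 12.81, 12.55 and 12.28 in wild-type muscle (log2 -2.22 ± 0.49 SE, adjusted p = 0.0184). The call of Casq1 was lost without transgenic replicate 1 or wild-type replicate 1, 2 or 3 (adjusted p up to 0.0597), while Sln and Casq2 kept theirs in all 8 omissions. In all, 2 of 12 store genes rose and 1 fell.

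Of 12 triad genes, which couple the membrane signal to calcium release, the junctophilin gene Jph2 fell, at 6.54, 6.89, 6.93 and 6.34 in transgenic and 8.60, 8.09, 7.83 and 7.25 in wild-type muscle (log2 -1.27 ± 0.26 SE, adjusted p = 0.015, or 0.051 without transgenic replicate 1). The list held 1 called gene (8.33%, against 5.30% of all rows), and its median was -0.28, with 11 of 12 members below 0. Among 18 calcium-dependent kinase and phosphatase genes, Camk2a fell, Camk1 fell and Camk2d rose. Camk2a was at 9.02, 9.90, 10.08 and 9.55 in transgenic and 11.58, 11.35, 11.34 and 10.88 in wild-type muscle (log2 -1.65 ± 0.26 SE, adjusted p = 0.00385), and its 2 other probes differed by -1.18 and -1.68. The calls of Camk1 (-0.78 ± 0.21 SE) and Camk2d (0.93 ± 0.26 SE) were each lost in 7 of 8 omissions, with adjusted p up to 0.157 and 0.149 without transgenic replicate 1. Among the 3 other probes of Camk2d, 1 differed by 0.33 and 1 by -0.05.

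The endplate and denervation-response genes rose where they changed: 5 of 19 tested were higher in transgenic mice and 0 lower. These are Chrna1 of the muscle receptor, Chrna9 of another acetylcholine receptor and the receptor-clustering kinase gene Musk. The others are Runx1, a transcription factor gene that denervated muscle turns on, and the growth-arrest gene Gadd45a. Nerve-controlled genes are known to be driven through E-boxes, the sites of myogenic factors such as myogenin. The promoters of Chrna1, Chrna9 and Musk are shown for this reason. Each runs from 250 bases before to 50 bases after the annotated start (RefSeq, GRCm38.p6), on the gene's strand, 5′ to 3′. Capitals mark CAGCTG, an E-box that reads the same on both strands.
Chrna1 (chr2:73580289-73580588, minus strand): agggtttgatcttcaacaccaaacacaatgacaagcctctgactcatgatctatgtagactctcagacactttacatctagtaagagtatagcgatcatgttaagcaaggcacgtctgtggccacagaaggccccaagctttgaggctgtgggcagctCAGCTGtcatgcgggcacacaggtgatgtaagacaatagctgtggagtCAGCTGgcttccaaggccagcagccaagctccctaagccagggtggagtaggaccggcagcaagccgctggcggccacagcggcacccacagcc
Chrna9 (chr5:65966874-65967173, plus strand): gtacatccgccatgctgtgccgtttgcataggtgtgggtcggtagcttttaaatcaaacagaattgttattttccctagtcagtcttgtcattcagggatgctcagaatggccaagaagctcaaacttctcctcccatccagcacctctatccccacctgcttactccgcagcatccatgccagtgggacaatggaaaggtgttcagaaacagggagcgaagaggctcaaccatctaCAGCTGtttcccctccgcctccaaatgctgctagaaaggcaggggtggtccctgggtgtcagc
Musk (chr4:58285712-58286011, plus strand): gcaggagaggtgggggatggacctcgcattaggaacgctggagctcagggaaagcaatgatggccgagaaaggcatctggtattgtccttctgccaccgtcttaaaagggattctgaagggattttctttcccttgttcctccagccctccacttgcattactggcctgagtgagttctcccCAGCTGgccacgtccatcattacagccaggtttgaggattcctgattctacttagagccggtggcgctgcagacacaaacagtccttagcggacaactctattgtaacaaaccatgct
CAGCTG lies at -92 and -44 from the start of Chrna1, at -13 in Chrna9 and at -68 in Musk. These letters stand in 16.3% of all 32851 promoters of this length, counted per promoter. Among the list's genes with a promoter in the table, 3 of the 5 called and 3 of the 11 uncalled ones hold them. A gene counts here if any of its promoters holds them. The 3 called ones are those shown, while the called Gadd45a and Runx1 do not hold them. The promoter of Myh4, which fell and is outside the list, holds CAGCTG at -67. A match is a run of letters and was not tested for binding.

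Chrna1, the alpha subunit of the muscle receptor, was at 11.23, 12.01, 11.12 and 10.38 on the transgenic arrays, against 9.61, 9.57, 8.32 and 8.72 on the wild-type arrays (log2 2.13 ± 0.34 SE, adjusted p = 0.00449), and its other probe differed by 2.09. Chrna9 was at 8.40, 7.84, 7.41 and 7.50 in transgenic and 6.56, 5.39, 5.57 and 5.53 in wild-type muscle (log2 2.02 ± 0.32 SE, adjusted p = 0.00385). Musk was at 9.36, 8.13, 7.80 and 7.14 in transgenic and 6.38, 6.76, 5.67 and 6.86 in wild-type muscle (log2 1.69 ± 0.42 SE, adjusted p = 0.0311), and its other probe differed by 0.70. The authors' values gave 1.05 for Chrna9 and 1.03 for Musk. Transgenic and wild-type arrays did not overlap for any of the 3, with the smallest gap for Musk. Gadd45a was at 11.51, 11.98, 12.51 and 11.86 in transgenic and 11.08, 10.08, 10.85 and 10.58 in wild-type muscle (log2 1.32 ± 0.24 SE). Runx1 was at background level on the wild-type arrays and was detected on 3 of 4 transgenic arrays (at least 1.49-fold higher after background correction, but 1.48-fold by the authors' values, adjusted p = 0.0201). Not all markers of denervation moved. The embryonic gamma subunit gene Chrng was detected on 1 array of each group and was high on transgenic replicate 2 alone (5.26, 7.17, 5.28 and 5.14 in transgenic mice). The adhesion gene Ncam1 did not pass (1.21 ± 0.40 SE, or 0.70 by the authors' values, adjusted p = 0.0957), and its other probe differed by -0.19. The adult epsilon subunit gene Chrne did not pass either (-0.75 ± 0.32 SE, adjusted p = 0.189). The beta subunit gene Chrnb1 differed by 0.48 ± 0.32 (SE). The calls of Chrna1, Chrna9 and Gadd45a held in all 8 omissions. Those of Runx1 were lost without transgenic replicate 1 or wild-type replicate 2 or 3 (adjusted p up to 0.0709), and those of Musk in 6 omissions (up to 0.11 without wild-type replicate 3).

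Genes of membrane excitability mostly lay lower in transgenic muscle. Of 19 potassium channel genes 4 fell and 1 rose. Kcnab1, an auxiliary subunit of voltage-gated channels, was at 6.38, 6.78, 6.49 and 5.69 in transgenic and 10.34, 9.78, 9.90 and 9.36 in wild-type muscle (log2 -3.51 ± 0.39 SE, adjusted p = 0.000293), and its other probe differed by -3.45. The inward rectifier gene Kcnj12 fell by 1.42 ± 0.33 (SE), the modifier subunit gene Kcng4 by 1.97 ± 0.47 and the fast delayed rectifier gene Kcnc1 by 1.20 ± 0.31 on the log2 scale. The other probe of Kcng4 differed by -0.38 and that of Kcnc1 by -1.06. The one that rose, the accessory subunit gene Kcne1l, was at 8.34, 9.74, 8.68 and 7.91 in transgenic and 4.75, 4.84, 4.95 and 5.77 in wild-type muscle, where it was detected on 1 of 4 arrays (log2 3.59 ± 0.39 SE). The authors' values gave -2.47 for Kcnab1, -1.10 for Kcng4 and a 3.99-fold difference for Kcne1l. The calls of Kcnab1 and Kcne1l held in all 8 omissions. Those of Kcnj12, Kcng4 and Kcnc1 were lost in 4 or 5, with adjusted p up to 0.0676 (without transgenic replicate 3), 0.0875 and 0.124 (both without transgenic replicate 1). Of 8 sodium, chloride and sodium-pump genes limma called 0 (3 at an unadjusted p under 0.05), and 7 lay below 0. The pump subunit gene Atp1b2 was at 8.89, 10.66, 10.18 and 10.03 in transgenic and 11.70, 11.23, 11.09 and 10.73 in wild-type muscle, with an adjusted p of 0.0904. The chloride channel gene Clcn1, whose loss causes myotonia, was at 6.65, 6.88, 7.61 and 6.86 in transgenic and 8.35, 8.49, 7.84 and 7.35 in wild-type muscle, with an adjusted p of 0.103. The median of the potassium channel list was -0.22 and came to -0.05 when arrays were scaled to a common median.

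Among myogenic factors and their partners 1 of 15 was called (6.67%, against 5.30% of all rows). Prox1, a homeobox gene that takes part in slow fibre identity and also marks lymphatic vessels, was at background level on the wild-type arrays and was detected on 3 of 4 transgenic arrays (at least 1.35-fold higher after background correction, but 1.32-fold by the authors' values, adjusted p = 0.0139). It was called in all 8 omissions and without both arrays of high lymphocyte score (adjusted p = 0.0418). The transcription factor gene Mef2c lay lower on every transgenic array without passing (-0.61 ± 0.20 SE, adjusted p = 0.0921). Of 16 dystrophin complex and sarcolemma genes limma called 0 (2 at an unadjusted p under 0.05), with the integrin gene Itga7 nearest (0.58 ± 0.19 SE, adjusted p = 0.0896). At the nuclear envelope the lamin gene Lmna rose, at 12.01, 11.85, 11.62 and 11.28 in transgenic and 10.85, 11.13, 10.83 and 10.74 in wild-type muscle (log2 0.80 ± 0.16 SE, adjusted p = 0.0118), and its 4 other probes differed by 0.78 to 1.01. Syne1, which encodes a linker between nucleus and cytoskeleton, was at background on all 4 transgenic arrays by 1 probe, while its other probe differed by 0.36, so the direction for the gene is not settled.

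Fatty acid uptake and oxidation lay higher in transgenic muscle. All 30 tested members lay above 0, with a median of 0.52, and 6 rose and 0 fell (13 had arrays that did not overlap, against 6.38% of all rows in that direction). Acyl-CoA dehydrogenases for long and very long chains, Acadl and Acadvl, carry out the opening step of the oxidation cycle. Acadl was at 11.27, 10.32, 10.45 and 10.44 on the transgenic arrays, against 9.49, 9.60, 9.00 and 9.08 on the wild-type arrays (log2 1.33 ± 0.22 SE, adjusted p = 0.00476). Acadvl was at 13.36, 12.78, 13.08 and 12.76 in transgenic and 12.05, 12.22, 11.97 and 12.18 in wild-type muscle (log2 0.89 ± 0.16 SE, adjusted p = 0.0082). The groups were apart for both, and transgenic replicate 1 was the highest array. Etfdh, which passes the electrons on to the respiratory chain, rose by 0.81 ± 0.16 (SE, adjusted p = 0.0128), and the isomerase gene Ech1 by 0.65 ± 0.13 (adjusted p = 0.015). Both called genes of import into mitochondria rose as well. The carnitine carrier gene Slc25a20 was at 13.68, 12.91, 12.91 and 12.86 in transgenic and 12.11, 12.43, 11.98 and 12.47 in wild-type muscle, and the palmitoyltransferase gene Cpt1b was at 12.73, 12.77, 12.97 and 12.63 in transgenic and 12.31, 12.22, 12.26 and 12.36 in wild-type muscle. The thioesterase gene Acot1 differed by 2.75 ± 0.85 (SE) without passing (adjusted p = 0.0747), and transgenic replicate 1 was at 13.65 and the other 3 at 9.14, 10.49 and 10.33. Acot2 had the same shape (1.70 ± 0.62 SE, adjusted p = 0.125), and its other probe differed by -0.26. Pdk4, which shuts pyruvate out of the cycle, was not called (0.87 ± 0.62 SE). The list's scores were 1.13, 0.25, 0.61 and 0.55 on the transgenic and -0.12, 0.07, -0.26 and 0.31 on the wild-type arrays, so the groups overlapped at transgenic replicate 2 and wild-type replicate 4. Its median kept its sign under every alternative, from 0.44 without transgenic replicate 1 to 0.61. Over the 8 omissions the number called ran from 3 without transgenic replicate 1 or wild-type replicate 3 to 11 without transgenic replicate 2. It was 2 in the fit of the vehicle arrays alone, 12 with array weights and 0 in an ordinary limma test of the vehicle arrays without moderation. Acadl, Acadvl and Etfdh were called in all 8 omissions. Ech1 was lost without transgenic replicate 1 or wild-type replicate 3 (adjusted p up to 0.0521), Slc25a20 also without wild-type replicate 1 (up to 0.0674), and Cpt1b in 6 omissions (up to 0.116 without transgenic replicate 3).

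Regulators of oxidative metabolism changed in part. Of 15 PGC-1 coactivator and nuclear receptor genes 2 rose and 1 fell. Nrf1, a transcription factor gene for respiratory genes, was at 8.67, 8.43, 8.69 and 8.29 in transgenic and 7.39, 7.84, 7.33 and 7.60 in wild-type muscle (log2 0.98 ± 0.17 SE, adjusted p = 0.00638). Its counterpart Gabpa rose by 0.70 ± 0.18 (SE, adjusted p = 0.0367, lost in 6 omissions with up to 0.13 without transgenic replicate 1), and its other probe differed by 0.08. The retinoid receptor gene Rxrg fell, at 8.31, 8.68, 8.89 and 8.90 in transgenic and 10.28, 10.22, 10.14 and 9.86 in wild-type muscle (log2 -1.43 ± 0.28 SE, adjusted p = 0.0113). Nrf1 and Rxrg were called in all 8 omissions. The coactivator gene Ppargc1a was at 11.85, 10.09, 10.24 and 10.18 in transgenic and 9.43, 9.90, 9.60 and 9.58 in wild-type muscle, apart but not called (adjusted p = 0.085). Ppara, the receptor for fatty acids, was detected on all 4 transgenic arrays and on 0 wild-type arrays, and the arrays overlapped (adjusted p = 0.0838).

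Few genes of the cycle and the respiratory chain were called. Of 24 pyruvate dehydrogenase and tricarboxylic acid cycle genes 2 were called (8.33%, against 5.30% of all rows). The transaminase gene Got2 (0.61 ± 0.14 SE) and the kinase gene Pdk1 (0.59 ± 0.14) rose, and both calls were lost without transgenic replicate 1. The highest adjusted p over the 8 omissions was 0.0697 for Got2 (without wild-type replicate 3) and 0.0892 for Pdk1 (without transgenic replicate 1). Of 32 complex I subunits limma called 0, with 1 at an unadjusted p under 0.05, and the median was -0.04. The nearest was Ndufv1, at 14.46, 14.43, 14.44 and 14.20 in transgenic and 14.08, 14.23, 13.86 and 13.90 in wild-type muscle (adjusted p = 0.0843). Of 41 subunits of complexes II to V the ATP synthase gene Atp5c1 alone rose (0.54 ± 0.12 SE, adjusted p = 0.0208, lost in 5 omissions with up to 0.0701 without transgenic replicate 1). Of 67 mitochondrial ribosomal genes 1 rose (Mrps30, 0.47 ± 0.13 SE) and 1 fell (Mrpl36, -0.47 ± 0.11 SE), and both calls were lost in 5 or more omissions (adjusted p up to 0.133 and 0.081 without transgenic replicate 1). Among 17 genes of mitochondrial fusion, fission and mitophagy 1 was called (5.88%, against 5.30% of all rows). Gdap1, which shapes mitochondria and causes a hereditary neuropathy when mutated in people, fell. It was at 6.16, 7.52, 7.00 and 6.97 in transgenic and 9.67, 10.66, 9.72 and 9.85 in wild-type muscle (log2 -3.06 ± 0.32 SE, adjusted p = 0.000274), its other probe differed by -3.10, and the call held in all 8 omissions. The authors' values gave -2.30.

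**Figure D3:**
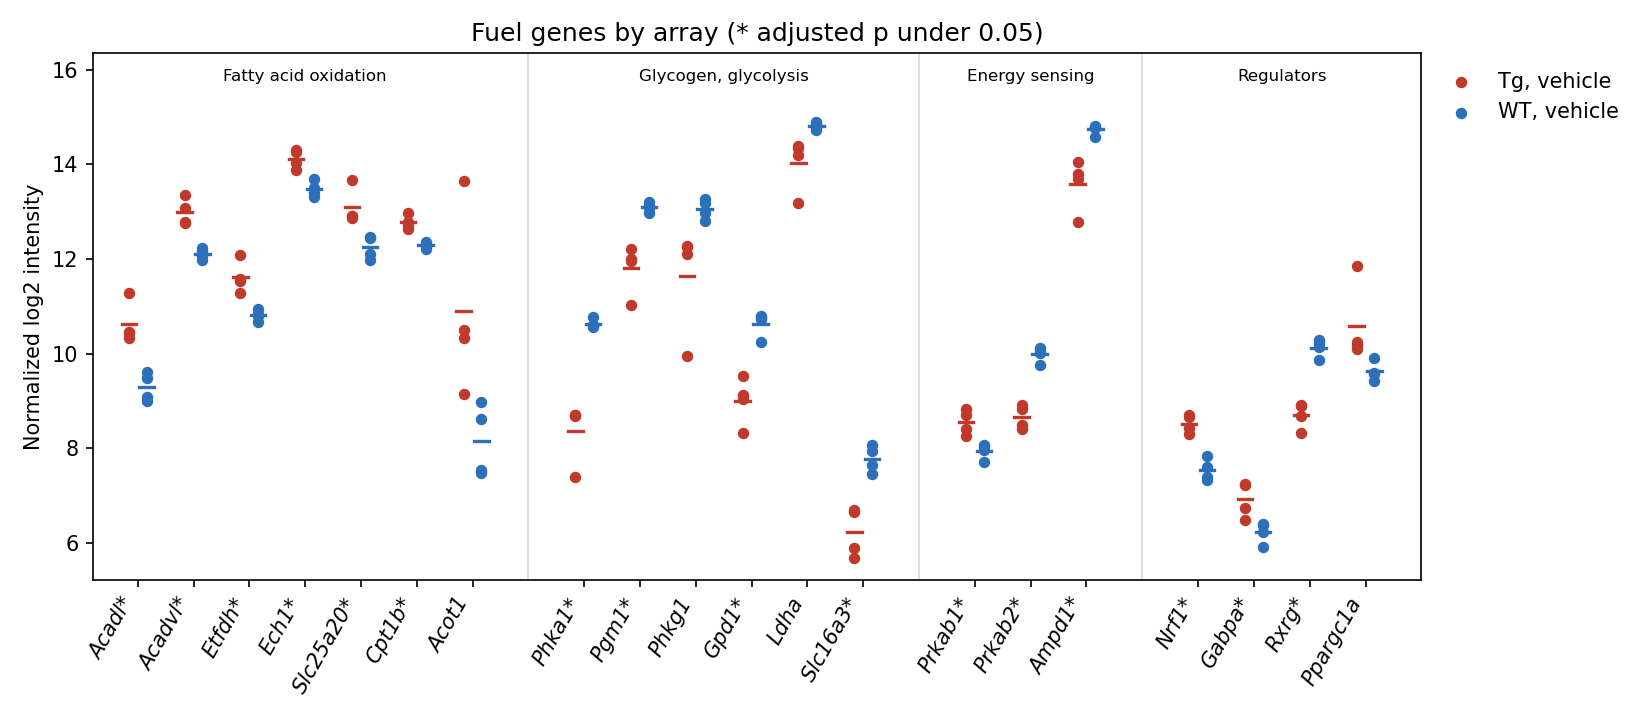
Normalized log2 intensity of fuel genes, 1 point per array, red for transgenic and blue for wild-type mice with vehicle, with bars at group means and an asterisk on genes called at an adjusted p under 0.05. Transgenic replicate 1 is the extreme point in Acadl, Slc25a20, Acot1, Phka1, Phkg1, Ldha and Ppargc1a, and the other 3 transgenic arrays still lie apart from the wild-type arrays in each of these.

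Genes of glucose use mostly lay below 0. Of 22 glucose transport and glycolysis genes 2 fell and 1 rose, with 18 below 0 and a median of -0.33, and of 17 glycogen genes 2 fell, with a median of -0.24. The glycerol phosphate shuttle gene Gpd1 was at 8.32, 9.03, 9.52 and 9.13 in transgenic and 10.73, 10.75, 10.79 and 10.25 in wild-type muscle (log2 -1.63 ± 0.30 SE, adjusted p = 0.00997). The lactate exporter gene Slc16a3 fell by 1.55 ± 0.38 (SE) on the log2 scale, but its other probe differed by -0.01 and the authors' values gave -0.85. The basal glucose transporter gene Slc2a1 rose, at 9.54, 9.17, 8.96 and 8.98 in transgenic and 8.26, 8.35, 8.36 and 8.45 in wild-type muscle (log2 0.81 ± 0.16 SE, adjusted p = 0.0118). Phka1, a regulatory subunit of the kinase that starts glycogen breakdown, was at 7.39, 8.71, 8.69 and 8.69 in transgenic and 10.58, 10.59, 10.78 and 10.56 in wild-type muscle (log2 -2.26 ± 0.39 SE, adjusted p = 0.0064), and its 2 other probes differed by -2.57 and -1.76. Pgm1, which moves glucose phosphate between glycogen and glycolysis, was at 11.03, 11.96, 11.99 and 12.21 in transgenic and 13.12, 12.97, 13.21 and 13.09 in wild-type muscle (log2 -1.30 ± 0.29 SE, adjusted p = 0.0184). The catalytic subunit gene Phkg1, the phosphorylase gene Pygm, the lactate dehydrogenase gene Ldha and Pfkfb3, an activator of glycolysis, did not pass (-1.41 ± 0.45, -0.65 ± 0.19, -0.77 ± 0.26 and -0.86 ± 0.25 SE, adjusted p from 0.0556 to 0.0929). Gpd1, Slc2a1 and Phka1 were called in all 8 omissions. Pgm1 was lost without transgenic replicate 1 or wild-type replicate 3 (adjusted p up to 0.0597) and Slc16a3 in 5 omissions (up to 0.0944 without transgenic replicate 1).

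The beta subunits of the energy-sensing kinase moved in opposite directions. Of 14 creatine and adenylate genes, 2 fell and 1 rose. Prkab2, the beta subunit of AMP-activated kinase that is typical of muscle, was at 8.50, 8.82, 8.91 and 8.40 in transgenic and 10.02, 10.12, 10.05 and 9.76 in wild-type muscle (log2 -1.33 ± 0.19 SE, adjusted p = 0.00194). Its widely expressed paralogue Prkab1 was at 8.82, 8.26, 8.70 and 8.42 in transgenic and 8.05, 7.72, 7.97 and 8.06 in wild-type muscle (log2 0.60 ± 0.14 SE, adjusted p = 0.025). The groups did not overlap for either. Ampd1, the muscle AMP deaminase, fell as well, at 12.78, 14.05, 13.80 and 13.69 in transgenic and 14.82, 14.77, 14.78 and 14.57 in wild-type muscle (log2 -1.15 ± 0.26 SE, adjusted p = 0.0195). Prkab2 was called in all 8 omissions, while Ampd1 was lost in 4 (adjusted p up to 0.0597 without wild-type replicate 3) and Prkab1 in 5 (up to 0.09 without transgenic replicate 1).

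Among 22 genes of FoxO factors and atrophy ubiquitin ligases 1 rose and 3 fell (18.2%, against 5.30% of all rows), with a median of -0.04. The transcription factor gene Foxo1 was at 10.40, 8.65, 9.50 and 8.98 in transgenic and 7.99, 8.16, 7.82 and 8.33 in wild-type muscle (log2 1.31 ± 0.31 SE, adjusted p = 0.024). Its best known targets in wasting muscle, the ligase genes Fbxo32 and Trim63, were not called. Fbxo32 (atrogin) was at 13.23, 10.54, 12.82 and 11.72 in transgenic and 12.21, 12.36, 11.14 and 13.39 in wild-type muscle, with an adjusted p of 0.892. Trim63 (MuRF) was at 12.34, 10.48, 11.73 and 11.06 in transgenic and 11.13, 10.93, 10.97 and 11.94 in wild-type muscle, with an adjusted p of 0.869. Both genotypes spread over about 1 log2 unit or more and overlapped. The conjugating enzyme genes Ube2b (-0.66 ± 0.14 SE) and Ube2d3 (-0.54 ± 0.14) and the ligase gene Traf6 (-0.47 ± 0.12) fell. The calls of Foxo1, Traf6 and Ube2d3 were lost in 5, 7 and 7 omissions (adjusted p up to 0.0801 without wild-type replicate 3, 0.129 without transgenic replicate 1 and 0.117 without wild-type replicate 2), and that of Ube2b without transgenic replicate 1 or wild-type replicate 3 (up to 0.0522). The 2 other probes of Traf6 differed by 0.57 and -0.22. Of 33 proteasome subunits limma called 0 (2 at an unadjusted p under 0.05).

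Of 35 autophagy and lysosome genes 2 were called, 5.71% against 5.30% of all rows. The microtubule-associated gene Map1lc3a, whose product coats autophagosomes, rose (0.90 ± 0.25 SE, adjusted p = 0.0465). The initiating kinase gene Ulk2 fell, at 8.57, 9.48, 8.89 and 9.34 in transgenic and 10.37, 10.27, 10.02 and 9.78 in wild-type muscle (log2 -1.04 ± 0.22 SE, adjusted p = 0.0156, or 0.0534 without transgenic replicate 1). The call of Map1lc3a was lost in 7 omissions (adjusted p up to 0.148 without transgenic replicate 1).

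Among 25 heat shock protein and chaperone genes 3 rose and 0 fell. The small heat shock gene Hspb7, which is expressed in heart and skeletal muscle, was at 12.52, 12.24, 11.07 and 11.52 in transgenic and 9.75, 10.26, 8.71 and 9.82 in wild-type muscle (log2 2.20 ± 0.40 SE, adjusted p = 0.00805). The co-chaperone gene Dnaja4 was at 11.22, 11.54, 10.48 and 10.60 in transgenic and 9.69, 10.10, 9.62 and 9.83 in wild-type muscle (log2 1.15 ± 0.22 SE, adjusted p = 0.01). Bag3, which directs damaged filament proteins to autophagy, rose by 0.64 ± 0.16 (SE, adjusted p = 0.0333). The groups were apart for all 3. Members outside these stayed uncalled, among them the general chaperone genes Hspb1 (0.65 ± 0.27 SE) and Hspa8 (0.36 ± 0.15 SE). Hspb7 and Dnaja4 were called in all 8 omissions and Bag3 in 2 (adjusted p up to 0.112 without wild-type replicate 3). Of 21 genes of the integrated stress and unfolded protein responses 1 rose and 1 fell (9.52% called, against 5.30% of all rows). Eif4ebp1, a brake on translation, was at 13.44, 12.53, 13.27 and 12.49 in transgenic and 11.50, 11.84, 11.59 and 11.94 in wild-type muscle (log2 1.21 ± 0.24 SE, adjusted p = 0.0123, called in all 8 omissions). Pdia6, a disulfide isomerase gene of the endoplasmic reticulum, fell by 0.93 ± 0.26 (SE) on the log2 scale, a call lost in every one of the 8 omissions (adjusted p up to 0.122 without wild-type replicate 2). The splicing target Xbp1 did not pass (-0.60 ± 0.18 SE, adjusted p = 0.0677).

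Genes that respond to glucocorticoids had a median difference of 0.49, and 3 of 17 rose and 1 fell. Foxo1, given above, is among them. The metallothionein gene Mt1, which binds metals, was at 14.99, 13.36, 14.14 and 13.64 in transgenic and 11.42, 12.17, 12.22 and 13.47 in wild-type muscle (log2 1.71 ± 0.41 SE, adjusted p = 0.0261). Ddit4, an inhibitor of mTOR signalling, was at 11.83, 8.95, 11.29 and 9.21 in transgenic and 6.73, 7.13, 7.39 and 9.57 in wild-type muscle (log2 2.62 ± 0.68 SE, adjusted p = 0.037). For both genes the overlap came from wild-type replicate 4. Sgk1, a kinase gene induced by steroids, went the other way (-1.02 ± 0.23 SE, adjusted p = 0.0201), and the receptor co-chaperone gene Fkbp5 did not pass (2.39 ± 0.69 SE, adjusted p = 0.0594). The list's scores were 1.20, 0.24, 0.79 and 0.24 on the transgenic arrays and -0.20, -0.11, -0.14 and 0.45 on the wild-type arrays. The number called higher was 0 without transgenic replicate 1 or 3 or wild-type replicate 1, 2 or 3, and 6 without wild-type replicate 4, so these calls rest on single arrays. The highest adjusted p over the 8 omissions was 0.0944 for Mt1 and 0.133 for Ddit4 (both without transgenic replicate 1) and 0.0674 for Sgk1 (without wild-type replicate 3). Of 17 clock genes limma called 0 (3 at an unadjusted p under 0.05), with Bhlhe40, a repressor in the clock, nearest (-1.09 ± 0.34 SE, adjusted p = 0.0741).

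Of 18 p53 target and growth arrest genes 2 rose and 1 fell. The stress sensor gene Sesn1 rose by 1.63 ± 0.41 (SE, adjusted p = 0.0313) on the log2 scale, with its other probe at 1.68, and Gadd45a, given with the endplate genes, rose too. Tigar, which restrains glycolysis, was at 5.26, 6.45, 4.55 and 4.56 in transgenic muscle, detected on 1 of 4 arrays, and at 7.83, 8.41, 8.19 and 6.84 in wild-type muscle (log2 -2.61 ± 0.61 SE, or -1.35 by the authors' values, adjusted p = 0.0222). The cell cycle inhibitor gene Cdkn1a was at 13.22, 9.99, 11.16 and 11.04 in transgenic and 9.83, 9.53, 8.32 and 10.79 in wild-type muscle, and did not pass (adjusted p = 0.125). The calls of Sesn1 and Tigar were lost in 6 and 5 omissions (adjusted p up to 0.112 without transgenic replicate 1 and 0.0724 without wild-type replicate 3). Of 23 antioxidant and metallothionein genes 2 were called (8.7%, against 5.30% of all rows). Mt1 rose, and so did the quinone reductase gene Nqo1 (1.05 ± 0.23 SE, adjusted p = 0.018, lost in 3 omissions with up to 0.0603 without transgenic replicate 1).

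In growth factor signalling 2 of 29 genes rose and 2 fell. The binding proteins of insulin-like growth factors moved in opposite directions. Igfbp3 was at 9.47, 8.04, 8.77 and 8.60 in transgenic and 6.84, 6.82, 7.02 and 6.80 in wild-type muscle (log2 1.85 ± 0.34 SE, adjusted p = 0.00994). Igfbp5 was at 9.86, 12.16, 11.09 and 12.07 in transgenic and 13.17, 13.02, 13.41 and 13.02 in wild-type muscle (log2 -1.86 ± 0.40 SE, adjusted p = 0.018). The groups were apart for both. Igfbp3 was called in all 8 omissions, Igfbp5 in all but that of wild-type replicate 3 (adjusted p = 0.0589). Eif4ebp1, given above, also rose, and the follistatin-like gene Fstl1 fell (-1.56 ± 0.40 SE, adjusted p = 0.0364, lost in 5 omissions with up to 0.123 without transgenic replicate 1). Of 10 polyamine genes Smox, which oxidizes spermine, fell. It was at 8.27, 8.66, 9.28 and 8.78 in transgenic and 11.07, 13.66, 11.28 and 12.94 in wild-type muscle (log2 -3.49 ± 0.63 SE, adjusted p = 0.0082), its 4 other probes differed by -3.56 to -3.86, and the call held in all 8 omissions.

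Histone deacetylases are the targets of the drug given to the other mice of the series. Of 16 deacetylase and sirtuin genes 1 was called (6.25%, against 5.30% of all rows). The sirtuin gene Sirt1 rose, at 9.53, 9.09, 9.17 and 8.95 in transgenic and 8.76, 8.30, 8.42 and 8.53 in wild-type muscle (log2 0.68 ± 0.16 SE, adjusted p = 0.0206, lost in 4 omissions with up to 0.0736 without transgenic replicate 1). Hdac5 lay higher on every transgenic array and Hdac3 lower, and neither passed (0.57 ± 0.17 and -0.46 ± 0.15 SE, adjusted p = 0.0578 and 0.0851). Of 54 cytosolic ribosomal protein genes limma called 0 (4 at an unadjusted p under 0.05). The difference was above 0 in 47 of them, with a median of 0.13, and Rpl19 was nearest to a call (0.58 ± 0.17 SE, adjusted p = 0.0581).

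Genes of the extracellular matrix fell where they changed. Of 9 fibrillar and associated collagens 5 fell, all 9 lay below 0, and the median was -1.53. Col1a1, a chain of the main collagen of connective tissue, was at 5.09, 7.49, 5.93 and 6.75 on the transgenic arrays, against 8.78, 9.22, 9.77 and 9.88 on the wild-type arrays (log2 -3.10 ± 0.59 SE, adjusted p = 0.011). Col6a2, of the collagen that surrounds muscle fibres, was at 5.18, 7.34, 5.41 and 6.39 in transgenic and 7.71, 8.14, 8.67 and 7.65 in wild-type muscle (log2 -1.96 ± 0.39 SE, adjusted p = 0.0123). The groups were apart for both, with transgenic replicate 1 lowest and replicate 2 highest among the transgenic arrays. Col5a1, Col3a1 and Col6a1 fell by 1.80 ± 0.42, 2.40 ± 0.65 and 1.47 ± 0.41 (SE) on the log2 scale, and Col3a1 was detected on 1 of 4 transgenic and 4 of 4 wild-type arrays. The other probes of Col3a1 and Col6a1 differed by -0.51 and -1.83. The authors' values gave smaller differences for Col1a1 (-2.06), Col6a2 (-1.07) and Col3a1 (-1.17), with 4 collagens called and a list median of -1.07. Col1a2, the partner chain of Col1a1, did not pass (-1.53 ± 0.64 SE, adjusted p = 0.182). In bulk tissue, fewer matrix-producing cells and less RNA per cell cannot be told apart.

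Of 14 basement membrane genes 3 fell. Col15a1 was at 5.08, 7.60, 6.34 and 7.23 in transgenic and 8.34, 8.40, 8.88 and 8.78 in wild-type muscle (log2 -2.04 ± 0.39 SE, adjusted p = 0.011), and Col18a1 and Col4a5 fell by 1.33 ± 0.25 and 0.87 ± 0.19 (SE) on the log2 scale. The other probe of Col18a1 differed by -0.49, and the authors' values gave -1.25 for Col15a1 and -0.33 for Col4a5. Of 29 genes of collagen folding, cross-linking and other matrix proteins 5 fell and 0 rose. These are the collagen chaperone gene Serpinh1 (-1.15 ± 0.23 SE, adjusted p = 0.014, or -0.47 by the authors' values), the elastic fibre gene Emilin1 (-1.18 ± 0.27), the prolyl hydroxylase gene P4ha1 (-1.12 ± 0.30), the procollagen protease gene Bmp1 (-1.12 ± 0.31) and Fstl1. The authors' values gave -0.64 for Emilin1, -0.55 for P4ha1 and -0.89 for Bmp1. Of 15 matrix protease and inhibitor genes limma called 0 (4 at an unadjusted p under 0.05), and the inhibitor gene Timp3 was nearest (0.40 ± 0.13 SE, adjusted p = 0.0932). Col1a1, Col6a2, Col15a1 and Col18a1 were called in all 8 omissions, and Serpinh1 in all but that of transgenic replicate 1 (adjusted p = 0.0505). Col4a5 and Emilin1 were lost in 3 omissions (adjusted p up to 0.0693 and 0.0684 without wild-type replicate 3). Col5a1 was lost in 4 (up to 0.0797), Col6a1, P4ha1 and Bmp1 in 6 (up to 0.151, 0.154 and 0.148, without transgenic replicate 1 as for Col5a1), and Col3a1 in 7 (up to 0.134 without wild-type replicate 3). Over the 8 omissions the number of collagens called ranged from 2 to 5 and that of the folding and cross-linking genes from 1 to 7.

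Markers of other cells were read beside the matrix genes. Of 11 fibroblast markers 1 fell, the peptidase inhibitor gene Pi16 of adventitial fibroblasts (-2.12 ± 0.49 SE, adjusted p = 0.0208, lost in 4 omissions with up to 0.0706 without wild-type replicate 3). The list's median was -0.63, with 8 of 11 members below 0 and 5 at an unadjusted p under 0.05, so it lay on the same side of 0 as the collagen median. The fibroblast scores were -1.87, -0.39, -0.95 and 0.13 on the transgenic arrays and -0.82, -0.16, 0.41 and 0.56 on the wild-type arrays, so the groups overlapped. The members differed among themselves. Pdgfra and Dcn differed by -0.11 and 0.07, and Dcn was at 13.88, 14.31, 14.22 and 14.34 in transgenic and 13.57, 14.18, 14.33 and 14.41 in wild-type muscle. Lum, Dpt and Thy1 differed by -1.53 ± 0.71, -1.56 ± 0.59 and -1.80 ± 0.65 (SE) without passing. The uncalled Cd34, Dpp4 and Fbln2 differed by -0.63, -0.83 and -0.23, and Fbln1 and Gsn by 0.15 and 0.14. All 11 fibroblast markers were detected on all 8 arrays. The median difference was -0.25 for 6 tendon markers and -0.44 for 7 adipocyte markers, with 0 called by limma among them (1 and 2 at an unadjusted p under 0.05) and an adipocyte score of 1.97 on wild-type replicate 4. Endothelial, macrophage and lymphocyte markers had medians of 0.07, -0.12 and 0.40. Of 9 smooth muscle and pericyte markers, with a median of 0.01 and 5 above 0, Lmod1 fell (-1.45 ± 0.33 SE, or -0.63 by the authors' values, adjusted p = 0.0208, lost without transgenic replicate 1 or wild-type replicate 3 with up to 0.0725). The uncalled Rgs5, Myh11 and Acta2 differed by 0.58, 0.44 and 0.22. The part of cell composition in the matrix result was not tested. Without both arrays of high lymphocyte score the collagen median was -1.69, against -1.53 with them, and 3 collagens were called.

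**Figure D4:**
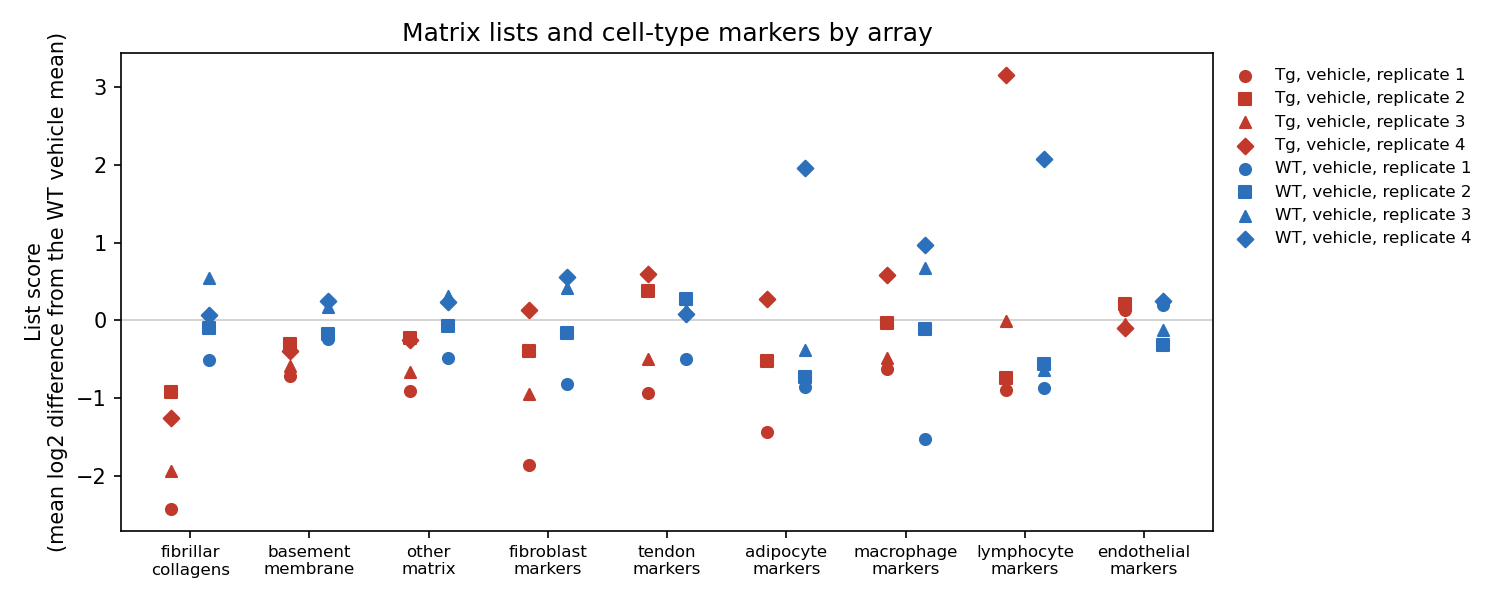
Score of each matrix gene list and each cell type marker list on every vehicle array (mean log2 difference of the list's genes from the wild-type vehicle mean), red for transgenic and blue for wild-type mice. The collagen scores run from -2.43 to -0.93 in transgenic and from -0.51 to 0.54 in wild-type mice without overlap, while fibroblast marker scores overlap and 1 array of each genotype is high in lymphocyte markers.

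Several of the larger changes lay outside these lists. Among those higher in transgenic mice, the vesicle-traffic gene Rab15 was at 10.95, 11.13, 8.98 and 9.94 in transgenic and 7.05, 7.98, 7.38 and 7.16 in wild-type muscle (log2 2.86 ± 0.42 SE, adjusted p = 0.00252). Smtnl1, a regulator of contraction that is a target of cyclic nucleotide kinases, was at 11.79, 10.69, 11.45 and 9.98 in transgenic and 8.65, 9.35, 8.33 and 9.33 in wild-type muscle (log2 2.06 ± 0.37 SE, adjusted p = 0.00805). Acss1, which makes acetyl-CoA from acetate in mitochondria, was at 13.29, 11.87, 12.83 and 12.47 in transgenic and 11.27, 10.59, 11.08 and 11.04 in wild-type muscle (log2 1.62 ± 0.28 SE, adjusted p = 0.00696). The groups were apart for all 3, and all 3 calls held in the 8 omissions. The oxygen sensor gene Egln3 rose by 2.23 ± 0.32 (SE) by 1 probe, while its other probe differed by 0.39. Among those lower in transgenic mice, the growth factor carrier gene Fgfbp1 was not above background on any transgenic array and was at 7.78, 7.05, 8.47 and 7.96 in wild-type muscle (at least 5.35-fold lower after background correction, but 2.63-fold by the authors' values, adjusted p = 0.000293). Nrep, a gene of nerve and muscle regeneration, was at 8.31, 11.41, 10.61 and 11.56 in transgenic and 13.27, 12.61, 13.33 and 12.82 in wild-type muscle (log2 -2.53 ± 0.58 SE, adjusted p = 0.0202). Its call was lost without wild-type replicate 1 or 3 (adjusted p up to 0.0674). The mitotic kinase gene Aurka was at 5.10, 6.75, 5.84 and 6.06 in transgenic and 8.55, 8.27, 8.35 and 7.43 in wild-type muscle (log2 -2.21 ± 0.35 SE, adjusted p = 0.00385), and the tRNA synthetase scaffold gene Aimp2 was at 10.16, 10.98, 10.84 and 10.88 in transgenic and 12.89, 13.19, 12.70 and 12.06 in wild-type muscle (log2 -2.00 ± 0.25 SE, adjusted p = 0.000854). Both calls held in the 8 omissions, and the authors' values gave -1.24 for Aurka. The endogenous huntingtin gene Htt did not pass (-0.39 ± 0.17 SE, adjusted p = 0.192).

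The same genotype difference was read in the mice given 4b, 3 transgenic against 5 wild-type animals that share no array with the vehicle groups. Both differences come from the same fit and share each gene's estimate of the spread, so their calls are not independent. There 2911 rows were called (28.3%), with transgenic mice higher in 1597 (15.5%) and lower in 1314 (12.8%). Of the 246 genes higher with vehicle, 178 were called higher with 4b (72.4% of them, 11.1% of the 1597), and of the 300 lower with vehicle, 247 were called lower (82.3% of them, 18.8% of the 1314). The median difference of the 246 was 0.92 with vehicle and 0.88 with 4b, and that of the 300 was -1.04 and -1.08. Limma called 0 genes for the interaction of genotype and 4b (smallest adjusted p = 0.0711), with 1039 rows at an unadjusted p under 0.05, of which 43 were among the 246 and 32 among the 300. Fatty acid oxidation had the same median in both (0.52), with 6 members called with vehicle also called with 4b, and the collagen median was -3.19 with 4b. Fibroblast and tendon markers had medians of -1.51 and -1.63 with 4b, against -0.63 and -0.25 with vehicle. Adipocyte, macrophage and smooth muscle markers had -1.11, -0.92 and -0.46 with 4b, and endothelial and lymphocyte markers -0.03 and 0.16. The part of cell composition was not tested here either. Some of the genes above were called in vehicle mice alone, and the interaction did not pass for any of them. Casq2 differed by 2.64 with vehicle and 0.48 with 4b, Dnaja4 by 1.15 and 0.13, Fhl2 by 1.95 and 0.51, and Myl6b by 2.13 and 0.70 in these fitted values. The uncalled Ppargc1a differed by 0.96 with vehicle and 0.01 with 4b. Fbxo32 and Trim63, not called with vehicle, were called higher with 4b (1.86 and 1.65, adjusted p = 0.04 and 0.0101).

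**Figure D5:**
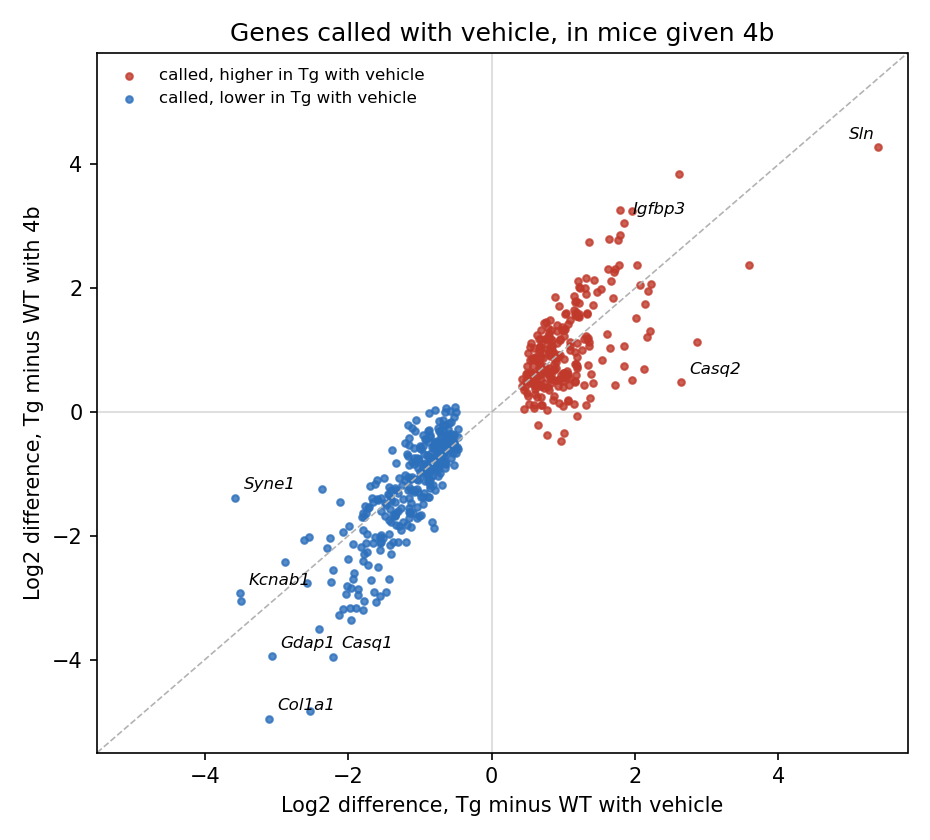
Log2 difference between transgenic and wild-type mice for the 546 genes called with vehicle, in mice given vehicle (horizontal axis) and in mice given 4b (vertical axis), 1 point per gene, with the dashed line marking equal differences. Most points share the sign of both differences, 241 of the 246 higher and 295 of the 300 lower genes.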

How the data were processed

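Total RNA of gastrocnemius muscle was hybridized to Illumina mouse bead arrays, 1 per animal. The authors deposited a table of intensity values and detection p-values for 25697 probes, not yet normalized per the file headers, and a table of log2 values per array, whose making no source used here describes. The intensity values ran from 81.2 to 44501. In ranks each log2 column matched its intensity column (lowest Spearman correlation 1), and its median was 7.11. The number of arrays limits the precision.

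From the intensities, background was corrected with normexp (background from the detection p, offset 16), arrays were quantile-normalized and values taken to log2 in limma 3.58.1 under R 4.3.3. Probes with a detection p under 0.05 on at least 3 of 16 arrays were kept (13706), and the probe of highest mean intensity stood for each gene, giving 10295 rows, 9521 with a gene symbol. Of all probes 23978 had 1 symbol in the platform annotation and 1719 had none. Means of 4 groups were fitted on 16 arrays with 12 residual degrees of freedom, which pools the spread of vehicle and 4b mice. Standard errors are the moderated ones, and p-values were adjusted over all rows by the Benjamini-Hochberg method. The fit was tested on simulated data. The labels give each animal its own number, and p-values measure the spread between these animals.

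A gene not detected on any array of 1 group has only a bound: the brighter group's mean was set against the mean, over the dim group's arrays, of the higher of the lowest detected signal and the probe's own, and is written as "at least". Such a bound holds for the background-corrected values only, and the authors' values gave smaller folds for the genes so written. Gene lists follow roles in muscle. The comparison and the lists were chosen with earlier results of these data known. Picked for naming were up to 8 called members of each list by smallest p, otherwise the 2 of smallest p, isoforms that anchor a comparison, and the largest changes. Not all of the largest changes are named in the text. Genes named outside this rule were chosen after their values were seen. Alternatives covered background, normalization, filter, probe choice, arrays in the fit, covariates and omission of single arrays. Promoters are those of RefSeq (GRCm38.p6).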

Additional observations from a re-analysis of the deposited data

Results flagged for a closer look

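An array was picked out where its distance from the nearest other array of its group was large against the group's range (Dixon's criterion for 4 samples), and 26 of 446 groups examined met it. Chance alone picks out about 1 in 20. Transgenic replicate 1 stood apart in fuel and contractile genes. It was high in Acadl (11.27, the others 10.32 to 10.45), Slc25a20 (13.68, the others 12.86 to 12.92) and Ppargc1a (11.85, the others 10.09 to 10.24). It was low in Myh4 (12.5, the others 13.37 to 13.51), Ky (9.458, the others 12.31 to 12.49), Ldha (13.19, the others 14.2 to 14.39), Phka1 (7.39, the others 8.688 to 8.709) and Phkg1 (9.938, the others 12.1 to 12.26). In each of these genes it lay farther from the wild-type arrays than the other transgenic arrays did.

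Transgenic replicate 2 was high in the embryonic receptor gene Chrng (7.172, the others 5.139 to 5.284). Transgenic replicate 3 was low in Kcnj12 (7.746, the others 8.159 to 8.178), Myl6b (5.959, the others 7.362 to 7.623) and Pdia6 (5.321, the others 5.668 to 5.696). Transgenic replicate 4 was low in Ndufv1 (14.2, the others 14.43 to 14.46) and had the lymph node marker score of 2.785, against -0.7163 to -0.137 in the other transgenic mice.

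Wild-type replicate 4 had the lymphocyte score of 2.077 (the others -0.8687 to -0.5675), the adipocyte score of 1.969 (the others -0.8635 to -0.3814) and the glucocorticoid score of 0.4528 (the others -0.197 to -0.113). Its dystrophin complex score was -0.3313 (the others 0.073 to 0.1476). It was high in Cyp2f2 (10.29, the others 7.174 to 7.619) and low in Ampd1 (14.57, the others 14.77 to 14.82), Gpd1 (10.25, the others 10.73 to 10.79) and P4ha1 (6.887, the others 7.387 to 7.455). Wild-type replicate 1 was high in Chrna9 (6.559, the others 5.391 to 5.568) and had the potassium channel score of -0.1517 (the others 0.0458 to 0.0534). Wild-type replicate 3 was low in Kcnj12 (8.908, the others 9.617 to 9.72) and high in Phka1 (10.78, the others 10.56 to 10.59).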

How the results depend on the processing

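The number of genes called was 546 and moved with the choice of spread and of animals more than with the scaling. It was 124 in a fit of the vehicle arrays alone and 0 in an ordinary per-gene limma test of them without moderation (1897 rows at an unadjusted p under 0.05). It was 880 with array weights, 1049 with the detected share as a covariate, 222 without the animals numbered in 3 digits, 82 at an adjusted p under 0.01 and 266 with a difference over 2-fold as well. Omission of 1 vehicle array gave 175 to 665. Background, offset, normalization, the authors' values, filters, probe choice, the Xist covariate and the deposit order block gave 408 to 727. Those higher and lower were 47 and 77 with vehicle arrays alone, 439 and 441 with array weights, 573 and 476 with the detected share, 102 and 120 without the 3-digit animals, and 528 and 199 with median scaling. Omissions gave 79 to 311 higher and 96 to 385 lower.

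Of the 118 called genes picked for naming, not all of which are named above, 48 were called in all 8 omissions. With the authors' values 113 were called, with the Xist covariate 97 and in the ordinary test 0, and 0 changed sign under any alternative. Uncalled genes near 0 did change sign. Fbxo32 was -0.20 and became 0.0914 with array weights, 0.0525 with the detected share and 0.293 without both arrays of high lymphocyte score (-0.581 to 0.314 over omissions of 1 array). Myh1 was 0.06 and became -0.00517 without the 3-digit animals and -0.0865 without those 2 arrays (-0.0337 to 0.263 over omissions). Myh7 was 0.64 and became -0.12 with array weights and -0.418 without those arrays. Trim63 was 0.16 and became -0.00771 with the Xist covariate (-0.152 to 0.466 over omissions), and Dcn was 0.07 and became -0.0455 with the detected share (-0.119 to 0.167 over omissions). The causes were not tested. The omission of both arrays was chosen after seeing the data. A slide block was not run. No paired analysis was possible because the labels give each animal its own number and the groups share none.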
